A study of Mus musculus and Rattus norvegicus with 8 samples.

Results

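The genes described here encode the proteins of the cytosolic ribosome. They were taken from the mouse and rat lung arrays by gene symbol: every probe set whose only symbol begins with Rpl or Rps and a number, or is Rplp0, Rplp1, Rplp2 or Rpsa. Kinase genes named Rps6k, the binding protein gene Rps19bp1 and pseudogene symbols were left out. The rule used no measured value. It found 35 genes on 49 probe sets of the mouse array, among 8251 genes named there, and 41 genes on 60 probe sets of the rat array, among 4736. Of these, 17 mouse genes and 29 rat genes belong to the large subunit by name, and 18 and 12 to the small subunit. Across the arrays 60 symbols were found, 16 of them on both arrays.

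Ribosomal protein genes are transcribed strongly in almost all cells, and their products assemble with ribosomal RNA into a small subunit that decodes the message and a large subunit that joins amino acids. Their mRNAs typically begin with a run of pyrimidines, the 5′ terminal oligopyrimidine (TOP) tract, through which mTOR signalling and the binding protein LARP1 set how much of them is translated. That control acts on translation and storage of the mRNA, so an array, which measures mRNA abundance, reads only part of the output of these genes.

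The study measured total RNA of whole lung after mechanical ventilation, with 2 control and 2 ventilated samples in each species and 1 Affymetrix array for each sample. The mice were male C57BL6 animals of 7 to 8 weeks; the ventilated ones had tidal volumes of either 17 ml/kg, given over 6 hours, or 35 ml/kg, given over 2 hours, and the labels do not say which array had which regimen. The mouse controls breathed spontaneously without a ventilator. The rats were male Wistar animals of 8 weeks; the ventilated ones had 12 ml/kg of room air over 5 hours, and their controls breathed spontaneously through the same kind of tracheal cannula, which the labels do not mention for the mouse controls. Species, array type, strain and regimen cannot be told apart. Signals of lung epithelial markers summed to between 14696 and 25706 normalised units on every array, so the defining markers of lung were present throughout.

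The start regions of some mouse genes with member symbols are shown because they hold the kind of pyrimidine run for which this family's mRNAs are known. RefSeq start windows of GRCm38.p6 were given for 45 of the 60 symbols, 55 windows in all, and no rat sequence was used here. A run was counted where at least 7 consecutive bases on the transcribed strand were C or T, the first being C, and where it began no more than 20 bases before and fewer than 30 bases after the annotated start. Such a run was found in 31 of the 55 member windows (56.4%), in 23.2% of the 32851 windows of all genes and in 26.7% of the 75 windows of mitochondrial ribosomal protein genes. The opposite strand and other motifs were not searched. The windows of 8 members with values described later follow, each 30 bases, 5′ to 3′, with the run in capitals. The first 5 genes had positive rat differences and the next 2 negative rat differences, and the last had the highest mouse difference. All windows are of the mouse gene of that symbol, and Rpl14, Rpl26, Rpl5 and Rpl35 were members on the rat array only.
Rpl14, chr9:120571499-120571528, plus strand: gcagggcgggCCCTCTCTCTTCTCgctgag
Rpl26, chr11:68901579-68901608, plus strand: gcgtgtagttCTCTTTCCTTTTgcggccat
Rpl35a, chr16:33056467-33056496, plus strand: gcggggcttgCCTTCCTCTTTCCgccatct
Rps27l, chr9:66946064-66946093, plus strand: ctcctctccaCTCCTCCCCgccgcctctat
Rps10, chr17:27635228-27635257, minus strand: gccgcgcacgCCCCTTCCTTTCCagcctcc
Rpl5, chr5:107900498-107900527, plus strand: cctacagccaCTCTTTCTCacgtcgcttgc
Rpl35, chr2:39005119-39005148, minus strand: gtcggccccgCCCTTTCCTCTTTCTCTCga
Rpl38, chr11:114668570-114668599, plus strand: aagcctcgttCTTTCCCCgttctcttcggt
The runs shown were 8 to 18 bases long. Only windows with a run were printed, and most stand beside rat differences though the sequence is mouse. They therefore cannot tell whether a run goes with the direction of a difference, which was not tested. For 16 members, among them Rplp0, Rpsa, Rps3 and Rpl41, these letters were not found in the searched window, which says only that.

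Signals below are quantile-normalised within species, on the linear scale of the deposited values, and a difference is the log2 mean of the ventilated arrays minus that of the controls, with its standard error (SE). Each gene was read from its brightest probe set and was tested where its mean signal lay above the 25th percentile of all signals (14.25 in the mouse, 11.475 in the rat). A gene was called at an adjusted p under 0.05 over all genes tested (limma, Benjamini-Hochberg). The labels do not say that replicates were more than separate samples of a group, so each p measures the spread between these arrays, and precision is limited by having 2 arrays in a group. The 2 ventilated mouse arrays may differ in regimen, so the mouse spread and SE may hold that difference too. In whole lung, fewer cells of a type and less RNA per cell cannot be told apart.

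In ventilated mouse lung no ribosomal protein gene was called, and neither was any other gene. Of the 35 members, 29 passed the filter, and Rpl32, Rpl39l, Rps14, Rps15, Rps20 and Rps27l did not. Limma called 0 of the 29 at an adjusted p under 0.05, where 0% of all 6888 genes were called, and 0 of the 29 had an unadjusted p under 0.05, against 178 of all genes. The smallest adjusted p among members was 0.9997. Differences were positive for 19 members and negative for 10, with a median of 0.05 against -0.03 over all genes. Both ventilated arrays lay above both controls for 2 members (6.9%, against 13% of all genes) and below them for 2 (6.9%, against 14.5%). The other 25 members overlapped between groups. Those counts depended on the scaling between arrays. With the values as deposited 7 members were above (24.1%, against 11.1% of all genes) and 1 below (3.4%, against 16.6%). With arrays set to a common median 13 were above (44.8%, against 15.2%) and 1 below (3.4%, against 10.9%). After cyclic loess 2 were above (6.9%, against 13.7%) and 1 below (3.4%, against 14.2%).

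The largest positive mouse differences came from 2 dim members. Rpl38, a large subunit protein needed in mouse embryos for translation of Hox mRNAs, gave control signals of 13.1 and 18.5 and ventilated signals of 22.3 and 30.3, a difference of 0.68 ± 0.44 (SE, n = 2 each). Both ventilated arrays were above both controls, but 1 control lay under the floor. Rpl39, a small protein of the peptide exit tunnel, had signals of 15.5 and 12.0 against 26.3 and 8.93, with the highest and the lowest value both in the ventilated group. Its difference of 0.38 ± 0.49 (SE) rests on 2 arrays raised to the floor, and with a floor of 1 it was 0.17. Rpl10a, of the mobile L1 stalk, had signals of 678 and 1390.2 in controls, which enclose the ventilated values of 1296 and 1056 (0.27 ± 0.37). Rps4l stood at 0.32 ± 0.32, Rpl13a at 0.22 ± 0.33, Rpl37a at 0.21 ± 0.28, Rpl35a at 0.15 ± 0.49 and Rps4x at 0.12 ± 0.21 (SE). In each of these the difference was about as large as its SE or smaller, and the groups overlapped. Rpl7l1, a paralog of Rpl7, had signals of 48.6 and 49.5 against 52.3 and 47.5, a difference of 0.02 ± 0.35 (SE).

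Among brighter mouse members the groups lay close together. Rps3, which lines the path of mRNA into the small subunit, gave control signals of 2123 and 2327 and ventilated signals of 2469 and 2364 (0.12 ± 0.20), the other member with both ventilated arrays on top. Rps10, also of the small subunit, had signals of 3018 and 2663 against 2364 and 2482 (-0.23 ± 0.20), with both ventilated arrays below. Rps24 was below as well, at 5897 on each control against 5742 and 5234 (-0.11 ± 0.18). Its deposited signals, 5701 and 5024 against 7121 and 4947, overlapped. Its brightest probe set was built on the same sequence record as a probe set named Rpl7, so its identity is uncertain. The equal control values arise because quantile normalisation gives probe sets of equal rank the same signal.

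The remaining members on the low side of the mouse comparison were within their spread. Rps13 had signals of 18.9 and 32.9 against 19.0 and 18.3 (-0.42 ± 0.46), so 1 control stood apart from 3 like values. Rpl22, a large subunit protein needed for T cell development in mice, had signals of 113 and 167 against 94.9 and 129 (-0.31 ± 0.36). Rpsa, the small subunit protein also known as the laminin receptor, had signals of 834 and 968 against 856 and 781 (-0.14 ± 0.24). Rps28 stood at -0.13 ± 0.19, Rpl7 at -0.09 ± 0.21, Rps19 at -0.06 ± 0.25 and Rplp0, the base of the ribosomal stalk, at -0.02 ± 0.21 (SE). Across members the half-width of the 95% interval had a median of 0.57 on the log2 scale. The interval lay within a 2-fold change either way for 20 of 29 members and within 1.5-fold for 8.

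In ventilated rat lung all 41 members passed the filter and again none was called, while 5.78% of all 3876 genes were (224 genes). Limma gave 12 members an unadjusted p under 0.05, against 979 of all genes. Differences were positive for 26 members and negative for 15, with a median of 0.09 against -0.01 over all genes. Both ventilated arrays were above both controls for 19 members (46.3%, against 27.8% of all genes) and below them for 8 (19.5%, against 27.2% of all genes). That surplus of members above the controls depended on the scaling between arrays, as given further on. With the values as deposited 9 were above (22.0%, against 25.2% of all genes) and 16 below (39.0%, against 31.4%).

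**Figure D1:**
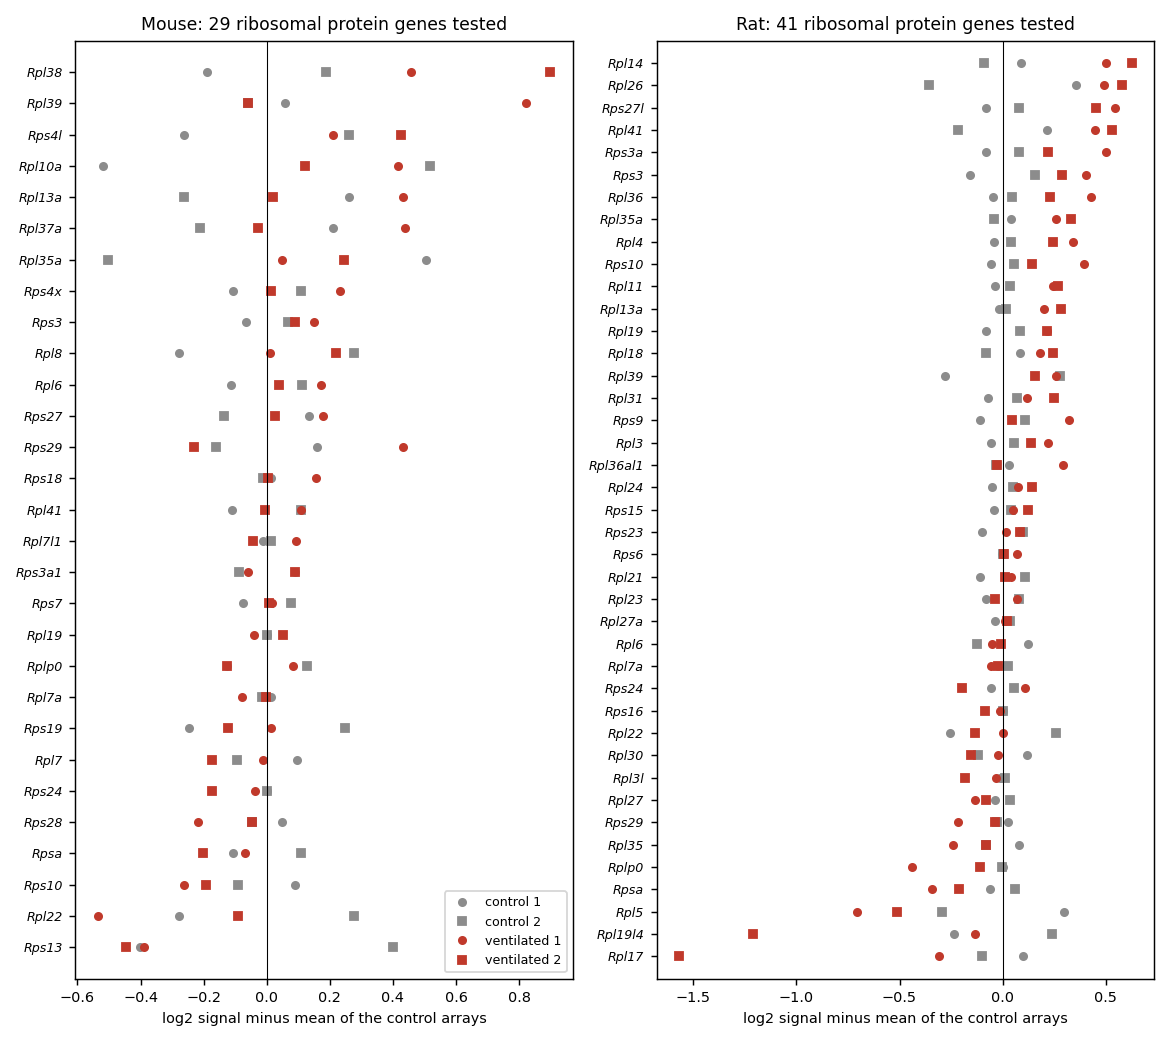
Each row is 1 ribosomal protein gene and each point 1 array, plotted as its log2 signal minus the mean of the 2 control arrays of that species (grey, controls; red, ventilated; circles and squares, replicates 1 and 2), ordered by the ventilated minus control difference. After quantile normalisation, rat control and ventilated points separate for 27 of 41 members. The ventilated arrays are above for 19 (46.3%, against 27.8% of all genes) and below for 8 (19.5%, against 27.2%). As deposited those rat counts are 9 (22.0%, against 25.2%) and 16 (39.0%, against 31.4%). Mouse points separate for 4 of 29, 2 above (6.9%, against 13% of all genes) and 2 below (6.9%, against 14.5%).

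The rat members nearest to a call belong to both subunits. Rpl14, a large subunit protein, gave control signals of 711 and 627 and ventilated signals of 946 and 1031, a difference of 0.56 ± 0.12 (SE, n = 2 each; limma adjusted p = 0.0545). The lowest ventilated value exceeded the highest control by more than the gap between replicates. The probe set named Rps27l had signals of 736 and 822 against 1133 and 1066 (0.50 ± 0.12, adjusted p = 0.0619), with the same separation. Rps27l encodes a close paralog of Rps27 that p53 induces in human and mouse cells, and the Rps27 symbol has no probe set of its own among the rat members, so which of the pair was measured is uncertain. On the mouse array Rps27l was too dim to test, and Rps27 had signals of 265 and 220.0 against 273 and 246 (0.10 ± 0.28).

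Other large subunit members were higher on both ventilated rat arrays without passing the test. Rpl26, near the tunnel exit, had signals of 2561 and 1559 against 2814 and 2983 (0.54 ± 0.22), with 1 low control. Rpl41, the shortest ribosomal protein, had signals of 421 and 312 against 494 and 523 (0.49 ± 0.17). Rpl36 had signals of 1920.3 and 2046 against 2669 and 2326 (0.33 ± 0.11). Rpl35a, whose gene is mutated in some people with Diamond-Blackfan anaemia, an inherited red cell disorder, had signals of 1202 and 1132 against 1397 and 1466 (0.30 ± 0.10). Rpl4, which reaches into the exit tunnel, had signals of 1224 and 1297 against 1597 and 1492 (0.29 ± 0.10). Rpl11, which together with Rpl5 and 5S RNA forms a particle that can bind Mdm2, had signals of 3299 and 3472 against 4006 and 4080 (0.26 ± 0.08). This value depended on the scaling: its deposited signals were 3940.1 and 3422 against 3517 and 3682, which overlap, with a difference of -0.03, and after loess it was 0.03. Adjusted p-values of these 6 genes ranged from 0.126 for Rpl11 to 0.198 for Rpl26. For each of them every ventilated array was above every control after quantile normalisation. As deposited Rpl26 overlapped as well as Rpl11, with signals of 2834 and 1564 against 2563 and 2803.

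The small subunit had members on either side in the rat. Rps3a, which sits near the mRNA exit, had signals of 2394 and 2669 against 3575 and 2946 (0.36 ± 0.12), and Rps3 had signals of 2017 and 2508 against 2976 and 2747 (0.35 ± 0.13), all ventilated values above the controls. Rps10 had signals of 2029 and 2186 against 2764 and 2321 (0.27 ± 0.12), again with the ventilated arrays above. Its deposited signals, 2103 and 2251 against 2529 and 2232, overlapped. Rps6, the substrate of S6 kinase, had signals of 2742 and 2747 against 2881 and 2759, a difference of only 0.04 ± 0.09. Rpsa was lower on both ventilated arrays by its brightest probe set, at 2615 and 2838 against 2150.3 and 2350.4 (-0.28 ± 0.10, limma adjusted p = 0.151). Rps29 stood at -0.13 ± 0.10 (SE), likewise with both ventilated arrays below. Of the 12 small subunit genes 8 were positive, with a median of 0.07, and of the 29 large subunit genes 18 were positive, with a median of 0.11.

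The largest negative rat differences came from dim probe sets of the large subunit. Rpl17 had signals of 106 and 92.1 against 79.8 and 33.3 (-0.94 ± 0.41), a gap set mainly by ventilated 2. Brighter probe sets that list Rpl17 beside copies of it, and so fall outside the rule, had positive differences: 1 had signals of 2551 and 2487 against 3512 and 3097 (0.39 ± 0.10) and another 2396 and 2037 against 2408 and 2433 (0.13 ± 0.11). The probe set named Rpl19l4 had signals of 123 and 171 against 133 and 62.9 (-0.67 ± 0.37), and its groups overlapped. Rpl5, the partner of Rpl11 in the 5S particle, had signals of 53.5 and 35.5 against 26.8 and 30.6 (-0.61 ± 0.30), both ventilated values below. A bright probe set that lists Rpl5 with a copy of it had signals of 3131 and 2814 against 2777 and 2876 (-0.07 ± 0.10), where the groups overlapped. Among brighter members Rplp0 had signals of 3575 and 3555 against 2625 and 3302 (-0.28 ± 0.12, limma adjusted p = 0.230), lower on both ventilated arrays. Rpl35 stood at -0.16 ± 0.11 and Rpl27 at -0.11 ± 0.09 (SE). Rpl3l, a paralog of Rpl3 made in heart and skeletal muscle, stood at -0.11 ± 0.20, with signals of 76.6 and 77.9 against 75.4 and 68.1. Rpl36al1, a paralog by its symbol, had signals of 946 and 904 against 1132 and 907, which overlap (0.13 ± 0.14).

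The rat values were tighter than the mouse values. The median absolute gap between the control replicates was 0.14 on the log2 scale for rat members and 0.22 for mouse members, and that between the ventilated replicates 0.10 and 0.15. Over all genes the same gaps were 0.24 and 0.20 in the rat and 0.35 and 0.41 in the mouse. The median half-width of the 95% interval was 0.27 for rat members. The interval lay within a 2-fold change for 37 of 41 rat members and within 1.5-fold for 28. Members rank among the brightest genes of these lungs: of the 72 rat genes with a mean signal above 2000, 27 were members, and of the 100 such mouse genes, 15.

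The direction of the family as a whole turned with the scaling. Shares of all deposited signal were taken over every member probe set, tested or not. They were 6.91% and 6.66% on the rat controls and 6.74% and 6.79% on the ventilated rat arrays, so the groups overlapped. In the mouse the shares were 2.39% and 2.53% on controls and 2.93% and 2.48% on ventilated arrays, and ventilated 1 alone was high. The median rat difference was 0.09 after quantile normalisation, -0.10 with the values as deposited, -0.01 with arrays set to a common median and -0.05 after cyclic loess, beside all-gene medians of -0.0074, -0.065, 0.025 and 0.0046. Rat members with a positive difference numbered 26, 14, 19 and 17 of 41 in that order. Members above both controls numbered 19, 9, 12 and 10 (46.3%, 22.0%, 29.3% and 24.4%), against 27.8%, 25.2%, 31% and 28.6% of all rat genes. Members below them numbered 8, 16, 11 and 14 (19.5%, 39.0%, 26.8% and 34.1%), against 27.2%, 31.4%, 24.2% and 26.3% of all rat genes. The mouse median stayed positive, at 0.05, 0.17, 0.23 and 0.10 in the same order, beside all-gene medians of -0.03, -0.05, 0.0071 and -0.02. The 15 mouse members with a mean signal above 2000 had medians of 0.0051, 0.16, 0.22 and 0.05. All mouse genes that bright, these members included, had medians of -0.06, 0.12, 0.17 and -0.0037. The difference between members and all genes was not tested.

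**Figure D2:**
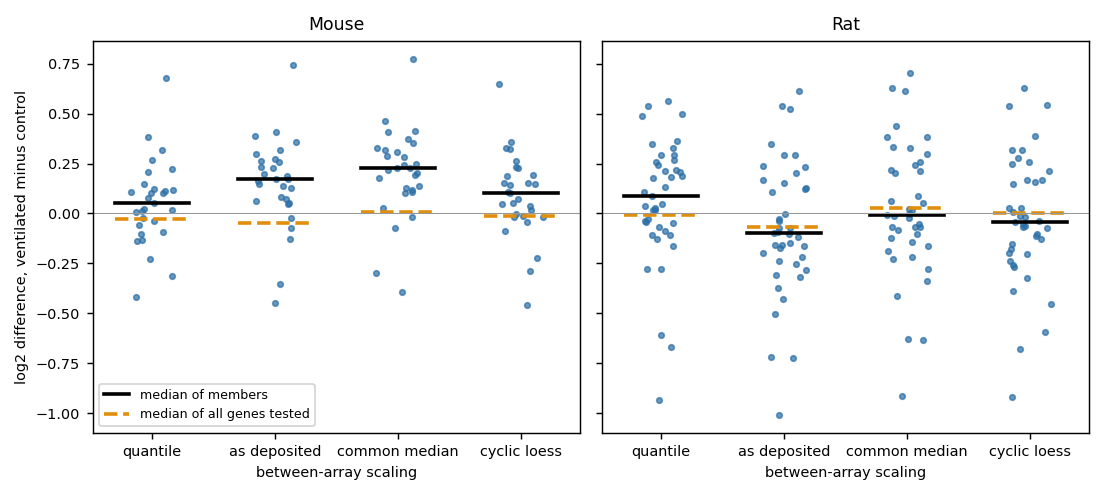
Points are the log2 differences of the ribosomal protein genes tested, ventilated minus control, under 4 ways of scaling the arrays; black lines are their medians and dashed orange lines the medians of all genes tested. The rat median runs from 0.09 with quantile scaling to -0.10 with the values as deposited, and the mouse median stays between 0.05 and 0.23.

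The brightness of a member marked how far its rat value moved with the scaling, in tiers chosen after the values were seen. The 27 members above a signal of 2000 had a median difference of 0.09 after quantile normalisation, against -0.11 as deposited, -0.01 at a common median and -0.06 after loess. All 72 rat genes of that tier, these 27 included, had medians of -0.02, -0.19, -0.10 and -0.15 in the same order, so the members' median was the higher under each scaling, a difference that was not tested. Rpl19, which had the highest signal of all probe sets on either ventilated rat array, is an example: its deposited signals were 4179 and 3965 in controls and 3656 and 4099 in ventilated rats, a difference of -0.07, yet quantile normalisation gave 0.22 ± 0.09. The 7 members between 500 and 2000 had medians of 0.29, 0.29, 0.38 and 0.32 under quantile, deposited, common median and loess values, while all rat genes of that tier had 0.0074, 0.045, 0.14 and 0.069. The highest of these 7 were Rpl14, the probe set named Rps27l, Rpl35a and Rpl4. The rest were Rpl21 (0.03 ± 0.11), Rpl36al1 (0.13 ± 0.14) and Rpl39 (0.21 ± 0.19), whose groups overlapped. In the rat, 14 members were positive under all 4 scalings, Rpl14, Rpl26, Rpl41, Rps3, Rps3a and Rps10 among them, 15 were negative under all 4, Rplp0, Rpsa and Rpl5 among them, and 12 changed sign (Rpl3, Rpl11, Rpl19, Rpl21, Rpl23, Rpl24, Rpl27a, Rpl31, Rps6, Rps9, Rps15 and Rps23). In the mouse 18 were positive under all 4, Rpl22, Rps10, Rps13 and Rpsa were negative under all 4, and 7 changed sign (Rpl7, Rpl7a, Rpl7l1, Rplp0, Rps19, Rps24 and Rps28). Rpl14 was called higher in the rat at a common median (0.70, limma adjusted p = 0.0297) and after loess (0.63, adjusted p = 0.0391) but not with the values as deposited (0.61). Rps27l was called at a common median alone among these scalings (0.61, adjusted p = 0.0431). Over 16 alternatives, the crossed pairing aside, the adjusted p ran from 0.0297 to 0.336 for Rpl14 and from 0.0431 to 0.330 for Rps27l, and neither was called without any single array (log2 differences of 0.47 to 0.64 and 0.41 to 0.57).

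Probe sets of the same gene did not always move together. Of the genes with at least 2 tested probe sets, 4 of 7 in the mouse and 7 of 16 in the rat had differences of both signs. The widest spread was in rat Rpl21, a large subunit gene with 4 probe sets. Its brightest gave 1629 and 1897 on the control arrays and 1811 and 1771 on the ventilated ones (0.03 ± 0.11), and the next 1103 and 1155 against 1468 and 1012 (0.11 ± 0.18). A pair made from the same expressed sequence tag went down: 1 had signals of 280 and 188 against 107 and 112 (-1.06 ± 0.23, limma adjusted p = 0.0456), and the other 118 and 122 against 39.5 and 40.3 (-1.59 ± 0.20, adjusted p = 0.0120). Those adjusted p-values come from the fit of all 5434 rat probe sets, in which 6.16% were called and these were the 2 called among 60 member probe sets. The brighter Rpl21 probe sets had differences near 0, so the fall is given for these probe sets and not for the gene.

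Rat Rpsa showed the same disagreement at high signal. Its brightest probe set was lower in ventilated rats (-0.28 ± 0.10), and its other probe set gave 2272 and 2075 on the control arrays and 2631 and 2690.2 on the ventilated ones, a difference of 0.29 ± 0.10 (SE). Both probe sets are made from the same sequence record, and for both the groups did not overlap after quantile normalisation. As deposited the dimmer one had signals of 2463 and 2071 against 2424 and 2545, which overlap. The next widest rat spreads were 0.44 in Rps15 and 0.43 in Rpl6 on the log2 scale. The Rps15 probe sets stood at 0.09, -0.25 and 0.19, from the brightest to the dimmest. Rpl6 stood at -0.03 ± 0.11 by its brightest probe set. Its other one, nearly as bright, had signals of 1897 and 2013 against 2508 and 2669 (0.40 ± 0.10, limma adjusted p = 0.0612 in the fit of all probe sets). In the mouse the widest spreads were 1.45 in Rpl19, 0.997 in Rps28 and 0.97 in Rps4x on the log2 scale, each between a bright and a dim probe set. For Rps4x the bright probe set stood at 0.12 and a dim one at -0.85. Ribosomal protein genes have many near-identical processed copies in the genome, and the arrays cannot divide signal between a gene and such copies.

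**Figure D3:**
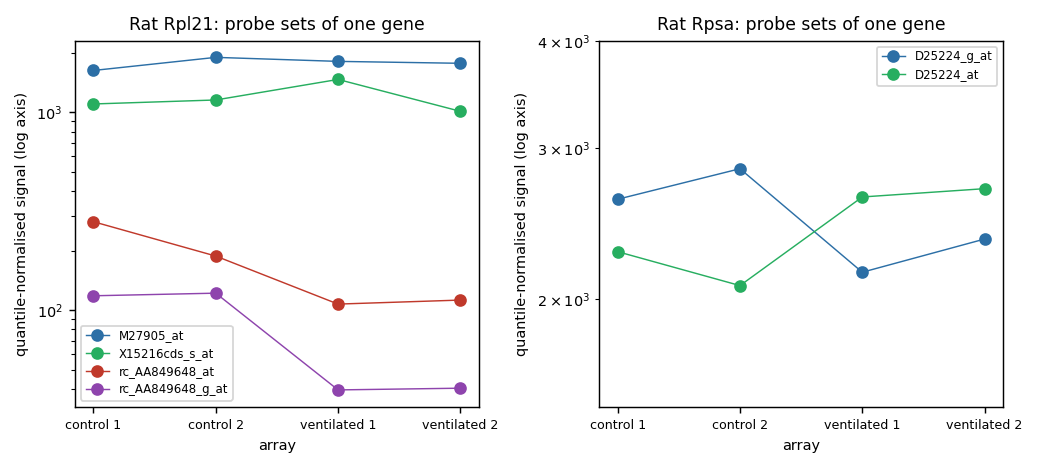
Quantile-normalised signal (log axis) of each probe set of Rpl21 (left) and Rpsa (right) on the 4 rat arrays. For Rpl21 the brighter probe sets stay level while the pair from 1 sequence tag lies between 39.5 and 112 in ventilated rats, and for Rpsa the probe sets cross.

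Across the species, 14 members were tested on both arrays, and none of their differences was shown to depend on species. The interaction of species and ventilation called 0.133% of the 2256 genes tested in both species (3 genes by limma) and 0 of the 14 members, of which 0 had an unadjusted p under 0.05, against 286 of all genes. The smallest p belonged to Rps10, at -0.23 in the mouse and 0.27 in the rat, a difference between species of 0.49 ± 0.23 (SE; limma adjusted p = 0.424). Rpl41 followed, at 0.05 and 0.49 (difference 0.44 ± 0.27), then Rpl19 at 0.0051 and 0.22 (0.21 ± 0.20), Rplp0 at -0.02 and -0.28 (-0.25 ± 0.25) and Rps3 at 0.12 and 0.35 (0.23 ± 0.23). The sign was the same in both species for 11 of the 14, positive in both for 6 (Rpl13a, Rpl19, Rpl35a, Rpl39, Rpl41 and Rps3) and negative in both for 5 (Rpl7a, Rpl22, Rplp0, Rps24 and Rpsa). The same count was not made over all 2256 genes, so it does not show that the family agrees between species. Rpl6, Rps10 and Rps29 had opposite signs. The other rat probe set of Rpl6, at 0.40, had the sign of the mouse value (0.11). The rat value of Rps24 comes from a dim probe set, with signals of 113 and 122 against 126 and 102. A bright probe set that lists Rps24 with a copy of it, outside the rule, had signals of 2644 and 3201 against 3812 and 3555 (0.34 ± 0.12). Several signs of the 14 members turn with the scaling, as given above.

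**Figure D4:**
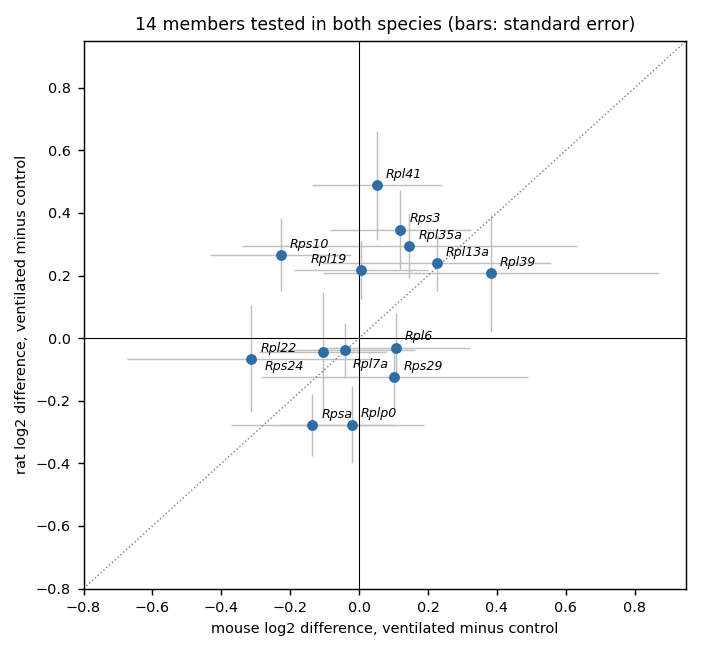
Each point is 1 of the 14 ribosomal protein genes tested on both arrays, with its mouse difference on the horizontal axis and its rat difference on the vertical axis (log2, ventilated minus control); bars are standard errors and the dotted line marks equal values. The mouse bars of all genes but Rps10 cross 0, and Rps10, at -0.23 in the mouse and 0.27 in the rat, lies farthest from the dotted line.

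Genes that work with the ribosome were read from lists drawn up with earlier results of these data known. Of the genes on them, limma called 0 of 169 tested in the mouse and 3 of 66 in the rat (4.55%, near the 5.78% of all rat genes). Mouse medians were 0.15 for ribosome biogenesis (30 of 44 positive), 0.13 for translation initiation (23 of 32 positive), 0.19 for other genes with TOP mRNAs (15 of 17 positive), 0.09 for elongation (5 of 6 positive) and 0.04 for translation control by mTOR (10 of 19 positive). In the rat the initiation list had a median of 0.29 (11 of 16 positive, 0 called), elongation one of -0.0026 (2 of 5 positive, 0 called) and other TOP genes one of 0.18 (5 of 8 positive, 0 called). Eif2s1, the alpha subunit of the initiation factor that brings in the initiator tRNA, was the nearest of the initiation genes to a call, with signals of 241 and 235 against 353 and 370.0 (0.60 ± 0.14, limma adjusted p = 0.0572). Fau, a fusion gene that yields Rps30, had a mouse difference of 0.28 ± 0.45 (SE).

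The called rat genes of these lists were 3. Eif4ebp1, the translation repressor that mTOR inactivates by phosphorylation, fell from 483 and 640 in controls to 248 and 293 in ventilated rats (-1.04 ± 0.18, limma adjusted p = 0.0320), within an mTOR list in which 5 of 14 genes were positive (median -0.16). In that list Mtor itself had signals of 97.0 and 94.2 against 59.6 and 46.5 (-0.86 ± 0.22, adjusted p = 0.0772). Gnl3, the nucleostemin gene of the nucleolus, rose from 104 and 112 to 191 and 203 (0.87 ± 0.16, adjusted p = 0.0381), in a biogenesis list with 6 of 11 positive (median 0.07). Mrps11, of the small subunit of the mitochondrial ribosome, rose from 37.6 and 43.0 to 84.0 and 81.2 (1.04 ± 0.22, adjusted p = 0.0469). With any single rat array left out limma called no gene, these 3 and the marker genes below included.

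Mitochondrial ribosomal protein genes had a higher rat median than the cytosolic ones, and the difference between the lists was not tested. Of 15 tested in the rat, 14 were positive, with a median of 0.61 and 1 called. Their median stayed between 0.59 and 0.68 under the 4 scalings, beside -0.10 to 0.09 for the cytosolic members. Mrpl45 had signals of 102 and 65.9 against 173 and 188 (1.13 ± 0.25, adjusted p = 0.0534) and Mrpl23 signals of 210 and 255 against 353 and 354 (0.61 ± 0.16). In the mouse, 28 of 61 such genes were positive, with a median of -0.04.

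Other tissues' transcripts moved with ventilation on the same arrays, and their part in the values of the ribosomal protein genes was not tested. On the ventilated rat arrays 7 of 8 T cell markers were called higher, and their summed signal was 631 to 778 in controls and 6756 to 7602 in ventilated rats. Of 5 fat markers 4 were called higher, among them Ucp1 of brown fat, and the sums over all 5 were 846 to 1015 against 2372 to 2639. The remaining fat marker, Lep, was not called and went down, with signals of 735 and 595 against 333 and 505 (-0.69 ± 0.22). All 7 proliferation markers were positive, 1 of them called, with sums of 840 to 915 against 1351 to 1510. All 9 lung epithelial markers were negative, 2 of them called lower, with sums of 17990 to 18461 against 14696 to 16044. Of 5 hepatocyte markers 4 were positive and 2 called higher (sums of 709 to 774 against 1084 to 1140), and of 8 cardiac markers 7 were positive and 2 called higher (2159 to 2176 against 2732 to 2841). All 6 skeletal muscle markers were positive with 0 called (662 to 788 against 1115 to 1122), and all 5 endothelial markers negative with 1 called lower (2152 to 2727 against 1536 to 1563). In the mouse, 10 of 10 neutrophil markers were positive with 0 called, and their sum was 886 to 1942 in controls and 1692 to 9949 in ventilated mice. All 8 cardiac markers (3446 to 7058 against 2796 to 3641) and all 6 B cell markers (1118 to 1880 against 581 to 1247) were negative with 0 called. Of 4 mouse fat markers 3 were negative, with 0 called. The ratio of 3′ to 5′ signal of Gapdh, a measure of RNA integrity given for the mouse alone, was 2.96 and 1.16 in controls and 1.53 and 2.48 in ventilated mice, and did not separate the groups.

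Members are mostly short genes. Taking the length of the locus in the mouse annotation, matched by symbol, 34 of the 38 rat members with a known length lay in the shortest quintile of genes tested. The other 696 rat genes in that quintile had a median difference of 0.08, against -0.18 in the longest quintile, beside 0.09 for the members. Lengths were read after quantile normalisation alone, and the members' rat median changed sign under the other scalings. In the mouse, 26 of 29 members lay in the shortest quintile, where the other 1351 genes had a median of -0.06, beside 0.05 for the members. Whether length or RNA quality sets these values was not tested.

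Probe sets that carry a ribosomal protein symbol beside others, mostly pseudogene copies, were outside the rule. In the mouse 35 of 38 were tested, with a median difference of -0.02, and in the rat 36 of 37, with a median of 0.12 and 29 positive. These values were read after quantile normalisation alone, and most of the rat probe sets are bright, where the members' median turned with the scaling. None was called by limma in a fit of every probe set, named or not, where 0% of mouse and 5.96% of rat probe sets were called.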

How the data were processed

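The authors deposited 1 linear intensity per probe set and array. Per the labels, the mouse arrays were Affymetrix MG_U74Av2, and the rats were run on the maker's rat chip. Array totals show that the authors brought each array to a common level: 2% trimmed means lay at 150.1 for the mouse and between 149.4 and 149.6 for the rat. The software is not given in the sources used here. The 8 experiment files carry no measurement or scan date, so no batch was tested.

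Probe sets were named from the supplied gene tables. One symbol was given for 10833 of 12422 mouse probe sets, several for 396 and none for 1193; for the rat the numbers were 7006 of 8740, 308 and 1426. The 66 mouse control probe sets were left out. Within each species signals were quantile-normalised, raised to the 25th percentile and put on the log2 scale. Genes were represented by their brightest probe set. Differences were tested with limma (version 3.58.1, run in R 4.3.3; lmFit and eBayes, variance trend, two-sided); the interaction took species as a block. The scripts were tested on simulated data.

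The members and the gene lists were chosen with earlier results of these data known. The text names the 8 largest differences in each direction per species, all paralogs, members under the filter or with the widest probe-set spread, stalk genes, and up to 4 genes of each list by p. Other members named, such as Rpl4, Rpl11 and Rps6 in the rat, were chosen after their values were seen. Start windows came from RefSeq (GRCm38.p6).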

Additional observations from a re-analysis of the deposited data

How the results depend on the processing

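No alternative called a mouse member, and the mouse count over all genes was 0 in every setting run. Under no single array left out was a member called in either species or in the interaction. The count of rat members called moved from 0 to 2 at a common median, to 1 after cyclic loess, to 1 with a filter at the 50th percentile, to 2 with all probe sets and to 2 when probe sets of a gene were averaged. In the last of these Rpl21 turned to -0.63 through its pair of falling probe sets. Rpl14 was called in 4 of those 5 settings, all but that of all probe sets. The median rat difference of the members, 0.09, became -0.10 with the values as deposited, -0.0077 at a common median, -0.045 after loess and 0.15 over the 34 members above a signal of 500. Without single arrays it ran from 0.050 to 0.147, and 0.147 was reached without control 2. The mouse median, 0.05, became 0.17 as deposited, 0.23 at a common median, 0.10 after loess and 0.0051 with probe sets of several symbols added, and without single arrays it ran from 0.0028 to 0.083. It was 0.0053 without control 1, 0.0028 without control 2 and 0.0035 without ventilated 1.

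The 224 rat genes called became 23 with a floor at the 40th percentile, 39 with no filter, 61 without the variance trend and 0 without either control or either ventilated array, where the lone array takes its spread from the other arm of the comparison. The 3 interaction calls became 6 as deposited, 10 at a common median, 7 with a floor of 1, 11 with a floor at the 40th percentile, 22 with no filter, 7 with the mean of probe sets and 1 without the trend. Without single arrays they ran from 0 to 81, with 81 without mouse ventilated 2, 20 without mouse ventilated 1, 1 without mouse control 2 and 0 without any other array.

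The replicate numbers are shared between groups, but nothing says what they pair, and the deviations of same-numbered arrays correlated at -0.28 in the mouse and -0.11 in the rat. With the replicate block the calls were 0 in the mouse, 146 in the rat and 0 in the interaction, with 0 members called. The crossed pairing, added after seeing the data, called 0 mouse and 232 rat genes, among them 1 member, Rpl14. Testing all probe sets was not run for the interaction, since probe sets have no match between arrays. Settings for members above 500 and with several symbols were also added after seeing the data.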
